A study of Mus musculus with 16 samples.

Results

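The genes examined here belong to the Wnt and beta-catenin pathway that patterns the liver lobule. They are Rspo3, Lgr5, Rnf43, Znrf3, Axin2, Ctnnb1, Tbx3 and Lect2, 8 named genes among the 21887 protein-coding genes of the RefSeq table used. Each was described by the length of H3K4me2 and of H3K27ac called over the gene and within 10 kb of its ends, and by the E2f4 summits called in the same window. The data are chromatin immunoprecipitation sequencing (ChIP-seq) peak lists from mouse liver at postnatal day 90, on a mixed C57/B6 and 129 background, collected 40 h after partial hepatectomy. This operation removes most of the organ and sends the remaining hepatocytes back into the cell cycle. In both genotypes the Arid1a alleles were floxed (Arid1a Fl/Fl). The labels name no Cre for the mice called WT, and the mice called KO carried Alb-cre. This is a Cre under the albumin promoter, which is active in hepatocytes and not in endothelial or stellate cells. The Arid1a protein belongs to SWI/SNF, a complex that moves nucleosomes. Each mark had 1 library per genotype and E2f4 had 2 per genotype, and the labels do not say whether the E2f4 libraries came from separate animals, so that their spread may be technical. The other 8 of the 16 samples were inputs and were not analysed here.

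In the lobule, beta-catenin is active in the hepatocytes next to the central vein, where it switches on the pericentral programme of glutamine synthesis and xenobiotic metabolism. Wnt ligands and the R-spondin Rspo3 come mainly from endothelial cells and, for Rspo3, also from stellate cells, so that ligands and targets of the pathway belong to different cells. R-spondins bind Lgr receptors and take the ubiquitin ligases Rnf43 and Znrf3 off the cell surface, which spares the Frizzled receptors. Axin2, Lgr5, Rnf43, Znrf3, Tbx3 and Lect2 are known targets of beta-catenin. H3K4me2 lies at promoters and enhancers whether or not they are active, H3K27ac lies at active ones, and E2f4 is an E2F factor bound to cell cycle genes.

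For H3K4me2 there were 66832 called regions in WT and 73042 in KO (104 and 112 Mb), and for H3K27ac 63321 and 54652 (113 and 104 Mb). No read counts were given, so depth is unknown, and a stretch without a region may still carry some of the mark. Of the 12 hepatocyte marker genes all carried both marks in both genotypes, over a median of 33.9% and 36.4% of the window for H3K4me2 and 44.5% and 40.4% for H3K27ac in WT and KO. Markers of other cells also carried the marks: all 15 endothelial genes had both marks in both genotypes, although the protocol in the labels speaks of isolated hepatocytes. Since each mark had 1 library per genotype, the histone differences carry no p-value and their spread between animals is unknown. A gene was called longer or shorter in KO when the covered lengths differed by a ratio of at least 1.5 and the longer one reached 500 bp, a minimum that all 8 genes passed in both marks.

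Of the 8 genes, 4 matched the RefSeq promoter table: Ctnnb1, Axin2, Rnf43 and Lect2. The 4 others were Rspo3, Lgr5, Znrf3 and Tbx3. The 250 bases before the start are shown because both marks covered every base of them in both genotypes (build GRCm38.p6, gene strand, 5′ to 3′). The windows are chr9:120933150-120933399 on the + strand for Ctnnb1, chr11:108920099-108920348 (+) for Axin2, chr11:87662837-87663086 (+) for the first of 2 Rnf43 starts and chr13:56548539-56548788 (-) for Lect2. Capitals mark the letters of a TCF/LEF word, the kind of site at which beta-catenin is brought to DNA.
Ctnnb1: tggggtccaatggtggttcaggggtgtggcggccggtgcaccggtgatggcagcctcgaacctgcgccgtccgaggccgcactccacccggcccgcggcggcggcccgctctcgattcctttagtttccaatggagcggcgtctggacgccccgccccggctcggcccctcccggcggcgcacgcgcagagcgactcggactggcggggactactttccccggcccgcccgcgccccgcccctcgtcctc
Axin2: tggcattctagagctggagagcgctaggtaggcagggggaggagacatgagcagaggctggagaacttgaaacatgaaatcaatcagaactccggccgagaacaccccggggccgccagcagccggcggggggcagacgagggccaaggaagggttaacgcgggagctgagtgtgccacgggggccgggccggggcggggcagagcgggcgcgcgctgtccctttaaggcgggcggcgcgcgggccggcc
Rnf43: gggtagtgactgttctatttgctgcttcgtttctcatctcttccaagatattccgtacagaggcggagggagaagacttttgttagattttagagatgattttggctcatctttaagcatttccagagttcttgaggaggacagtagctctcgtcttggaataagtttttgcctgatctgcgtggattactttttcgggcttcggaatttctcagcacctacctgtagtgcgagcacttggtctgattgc
Lect2: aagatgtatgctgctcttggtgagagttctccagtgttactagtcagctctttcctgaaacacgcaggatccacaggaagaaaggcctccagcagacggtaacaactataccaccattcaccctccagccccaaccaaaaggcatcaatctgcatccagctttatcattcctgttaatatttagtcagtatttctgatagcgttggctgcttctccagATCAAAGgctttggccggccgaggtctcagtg
The words searched were CTTTGAT and CTTTGAA on both strands, and they occurred in the window of Lect2 alone, as ATCAAAG from 32 to 26 bases before the start. One of these words stood in 7.48% of the 32851 promoter windows of the same length in the table. The E2F words TTTGGCGC and TTTCGCGC, which do not overlap the TCF/LEF words, were in none of the 6 windows of these genes and in 0.654% of all windows. Absence says only that these letters are not in these 250 bases. Base composition differed between the windows. G and C made up 74.8% of the Ctnnb1 window and 69.2% of the Axin2 window, against 44.4% for Rnf43, 48% for Lect2 and a median of 52.4% over all windows. Ctnnb1 held 35 CpG pairs and Lect2 held 5.

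The RefSeq starts of Ctnnb1, Axin2, Rnf43 and Lect2 were marked in both genotypes. For Rspo3, Lgr5, Znrf3 and Tbx3 the gene end with more H3K4me2 was used. H3K4me2 at that end is no separate result, as it served for the choice. Within 1000 bp of the start, or of the better marked gene end for Rspo3, Lgr5, Znrf3 and Tbx3, H3K4me2 covered at least 1364 bp in both genotypes. H3K27ac covered more than 1000 bp there in both genotypes at 7 genes, the exception being Lgr5 with 752 bp in WT and 926 bp in KO. Among regions with a −log10 q-value of 5 or more, 7 genes passed 1000 bp for H3K4me2 and 6 for H3K27ac. The same share over all gene starts was not computed, so these counts are a description only. For H3K4me2, Lgr5 was shorter and Rspo3 longer in KO by the ratio of 1.5, that is 1 of 8 in each direction, while 5.71% of the 16973 genes tested were shorter and 11.5% longer. For H3K27ac, Tbx3 alone was shorter, 1 of 8 against 17.1% of 15214 genes, and none of the 8 was longer, against 12.3%. With 8 genes, counts of 0 or 1 lie near these background shares. At a ratio of 2 none of the 8 was called in either mark, against 7.09% of all genes for H3K4me2 and 14.5% for H3K27ac in either direction, and at a ratio of 5 to 4 the counts were 3 and 6, against 37.5% and 50.9%. When lengths were divided by the total length of each list, all genes together gave 1484 longer and 1261 shorter for H3K4me2 in place of 1959 and 970, and 2438 and 2084 for H3K27ac in place of 1867 and 2599. This scaling moved the median log2 difference of all genes for H3K4me2 from 0.09 to -0.01 and for H3K27ac from -0.03 to 0.09. The median log2 difference of the 8 genes was -0.08 for H3K4me2 and -0.14 for H3K27ac, on the scale of log2 of KO over WT with 100 bp added to each length.

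**Figure D1:**
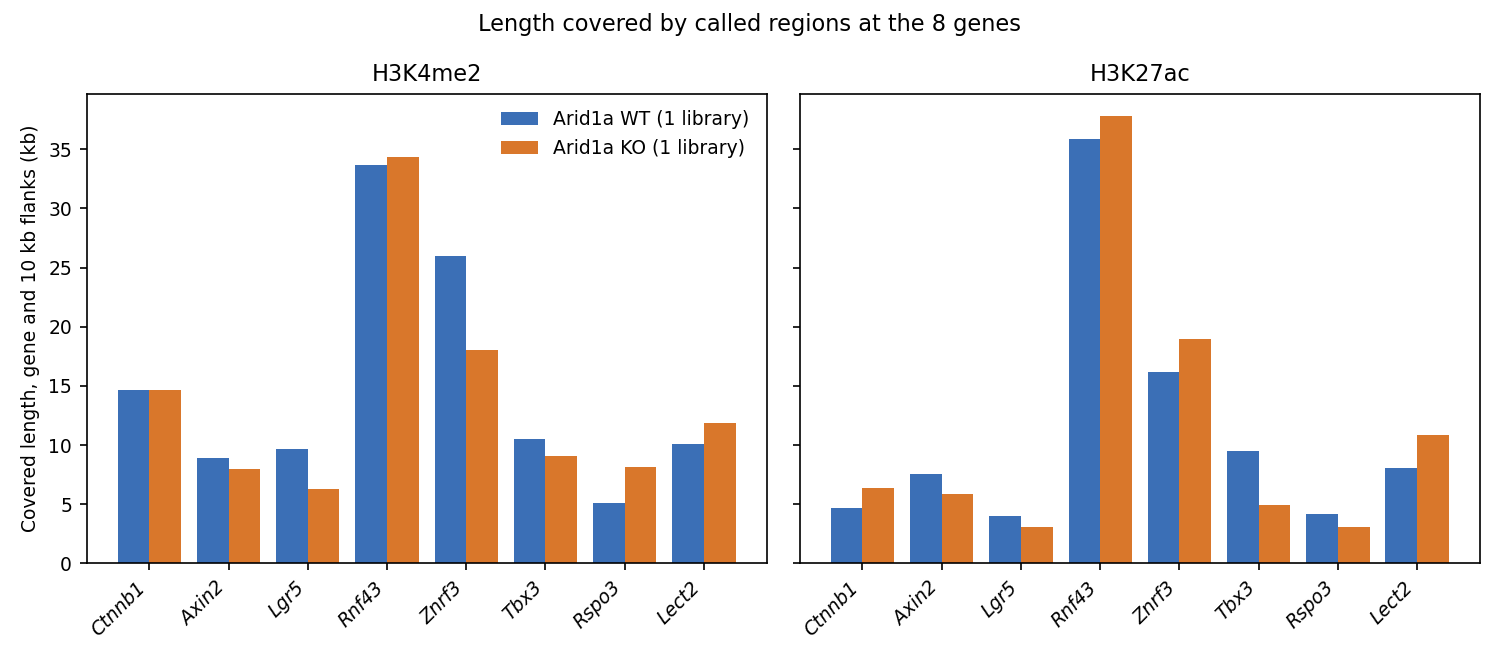
Covered length in kb of H3K4me2 (left) and H3K27ac (right) over each gene and 10 kb either side, with 1 bar per library for Arid1a WT (blue) and KO (orange). Rnf43 is the longest in every library, Lgr5 and Znrf3 are shorter in KO for H3K4me2, Rspo3 is longer in KO for H3K4me2, and Tbx3 is shorter in KO for H3K27ac.

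As a share of the window, H3K4me2 in WT was highest at Rnf43 (36.5%), followed by Ctnnb1 (31.2%), Tbx3 (30.8%), Lect2 (26.0%), Axin2 (16.8%), Znrf3 (13.8%), Lgr5 (6.14%) and Rspo3 (4.94%). In KO the order was Rnf43 (37.2%), Ctnnb1 (31.0%), Lect2 (30.6%), Tbx3 (26.6%), Axin2 (15.0%), Znrf3 (9.58%), Rspo3 (7.94%) and Lgr5 (3.97%). Lect2 with Tbx3, and Rspo3 with Lgr5, thus changed places, and with 1 library each it is not known whether such neighbours differ beyond the spread. The H3K27ac share of the window in WT ran from 2.56% at Lgr5 to 38.8% at Rnf43, and in KO from 1.95% at Lgr5 to 40.9% at Rnf43. By share of the window, Rspo3 and Lgr5, the ligand and its receptor, were the lowest of the 8 in both marks and both genotypes. Their windows, with that of Znrf3, are also the longest (102762, 157467 and 188519 bp), and a region at a start fills a smaller share of a longer window. By covered length Axin2 had less H3K4me2 than Lgr5 in WT (8905 and 9669 bp) and less than Rspo3 in KO (7962 and 8164 bp).

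**Figure D2:**
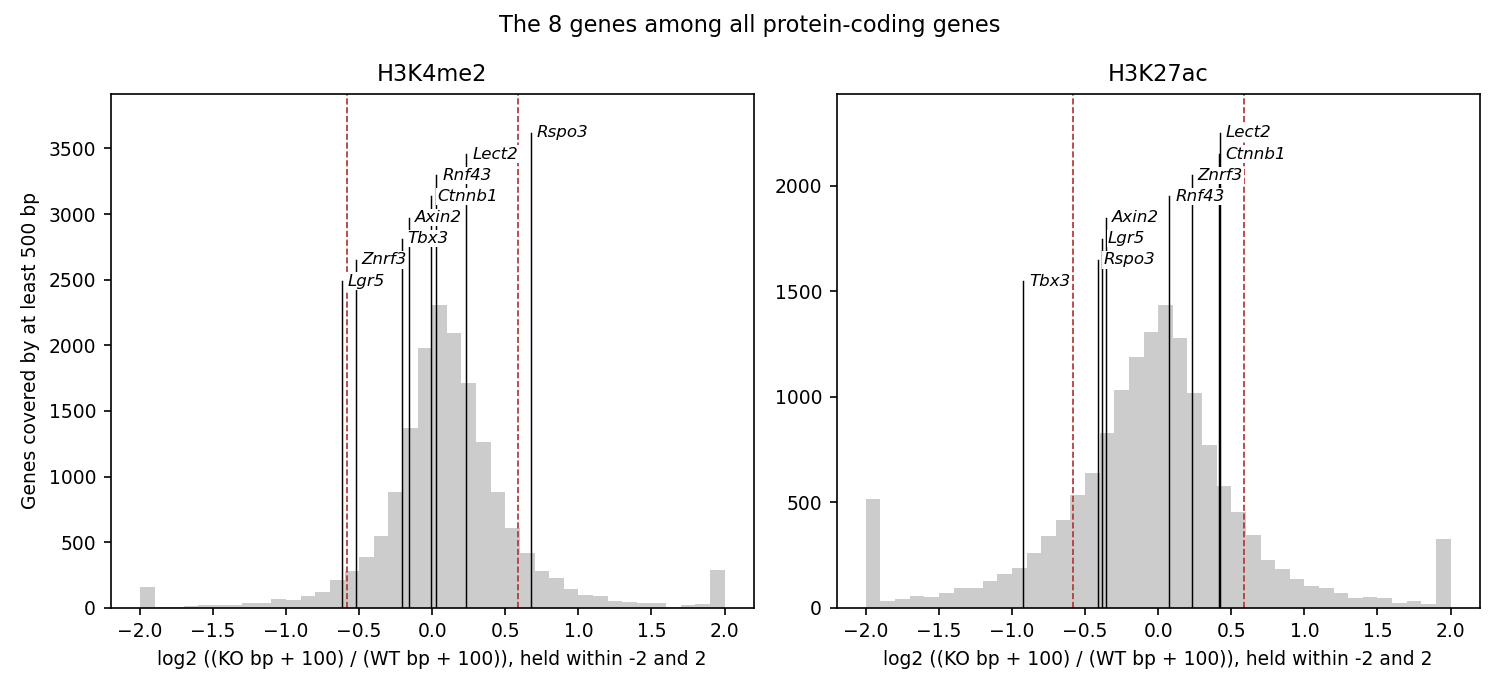
Histogram over all protein-coding genes of the log2 difference in covered length, KO over WT with 100 bp added, for H3K4me2 (left, 16973 genes) and H3K27ac (right, 15214 genes); black lines mark the 8 genes and dashed lines the log2 of a ratio of 1.5. Lgr5 (-0.62) and Rspo3 (0.67) lie beyond the dashed lines for H3K4me2 and Tbx3 (-0.92) for H3K27ac.

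Rspo3, the secreted R-spondin, had more H3K4me2 and less H3K27ac in KO. The gene spans chr10:29453106-29535867. H3K4me2 covered 5079 bp in WT and 8164 bp in KO, a ratio of 1.61, at percentile 91.5 of the differences of all genes tested. H3K27ac covered 4154 bp in WT and 3093 bp in KO, which did not reach the ratio of 1.5 (ratio 1.34, WT over KO). Both genotypes had a region across the upper gene end, 4312 bp in WT and 3962 bp in KO for H3K4me2, and 3656 bp and 3093 bp for H3K27ac. The additional H3K4me2 in KO was made of short regions inside the gene: 1026 bp from 3812 to 4837 bp, 747 bp from 6375 to 7121 bp, 933 bp from 9084 to 10016 bp and 409 bp from 27081 bp onwards, none of which overlapped a WT region. These were weak calls, with the authors' fold from 2.86 to 3.87. By its −log10 q-value the region at the gene end ranked 32785 of 66832 in WT and 18090 of 73042 in KO. H3K27ac covered 72.0% of the H3K4me2 length in WT and 37.9% in KO.

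Longer H3K4me2 with shorter H3K27ac was also measured at markers of the cells known to make Rspo3. Of 15 endothelial genes, 13 had longer H3K4me2 in KO (6 past the ratio, none shorter past it) and 14 had shorter H3K27ac (7 past the ratio). Over all genes tested, 62.7% were longer in KO for H3K4me2 and 47.5% for H3K27ac, with 11.5% longer past the ratio for H3K4me2 and 17.1% shorter past it for H3K27ac. The summed H3K4me2 length of the endothelial genes was 120792 bp in WT and 168594 bp in KO. Their summed H3K27ac length was 277246 bp and 196489 bp. No endothelial marker was at 0 in any library; of the stellate markers 2 in WT and 1 in KO were at 0 for H3K27ac. Of the 13 stellate cell and fibroblast genes, 11 had longer H3K4me2 (6 past the ratio) and 10 of 11 tested had shorter H3K27ac (5 past the ratio), with summed lengths of 48869 and 73717 bp for H3K4me2 and 68209 and 49007 bp for H3K27ac. Among the hepatocyte genes the summed lengths were 217396 and 227538 bp for H3K4me2 and 270076 and 278717 bp for H3K27ac. In tissue of mixed cells, a change in the number of cells of a type and a change of a mark per cell cannot be told apart. The 2 marks also came from separate libraries, 1 per genotype, and the cause of their opposite directions was not tested. The part of these other cells in the Rspo3 values was not tested either. The Rspo3 call for H3K4me2 was lost, though barely, when lengths were divided by the total of each list (log2 difference 0.57) and with lists of equal length (5079 against 7250 bp).

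Lgr5, the R-spondin receptor and a marker of the innermost pericentral hepatocytes, had less H3K4me2 in KO. The gene spans chr10:115450314-115587780 and overlaps the protein-coding A930009A15Rik. H3K4me2 covered 9669 bp in WT and 6258 bp in KO, a ratio of 1.55 (WT over KO), at percentile 4.87 of all differences. The length missing in KO lay around the upper gene end, where a single WT region of 5383 bp (from -445 to 4937 bp, positive into the gene) stood against KO regions of 3112 bp (-404 to 2707 bp) and 529 bp. The next WT region, 2157 bp from 5850 to 8006 bp, stood against 816 bp in KO. That second element lies within A930009A15Rik and cannot be assigned to one of the genes. The authors' fold of the region at the gene end was 7.03 in the WT list and 9.66 in the KO list. H3K27ac covered 4029 bp in WT and 3064 bp in KO (ratio 1.31). The region of 1562 bp about 6 kb into the gene stood against 189 bp in KO. The one near the upper gene end measured 2467 bp in WT and 2875 bp in KO. With the weaker region left out, at a −log10 q-value limit of 5, the H3K27ac direction at Lgr5 therefore turned (log2 difference 0.21). The H3K4me2 call was lost when regions with a −log10 q-value under 5 were left out (5383 against 4025 bp).

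**Figure D3:**
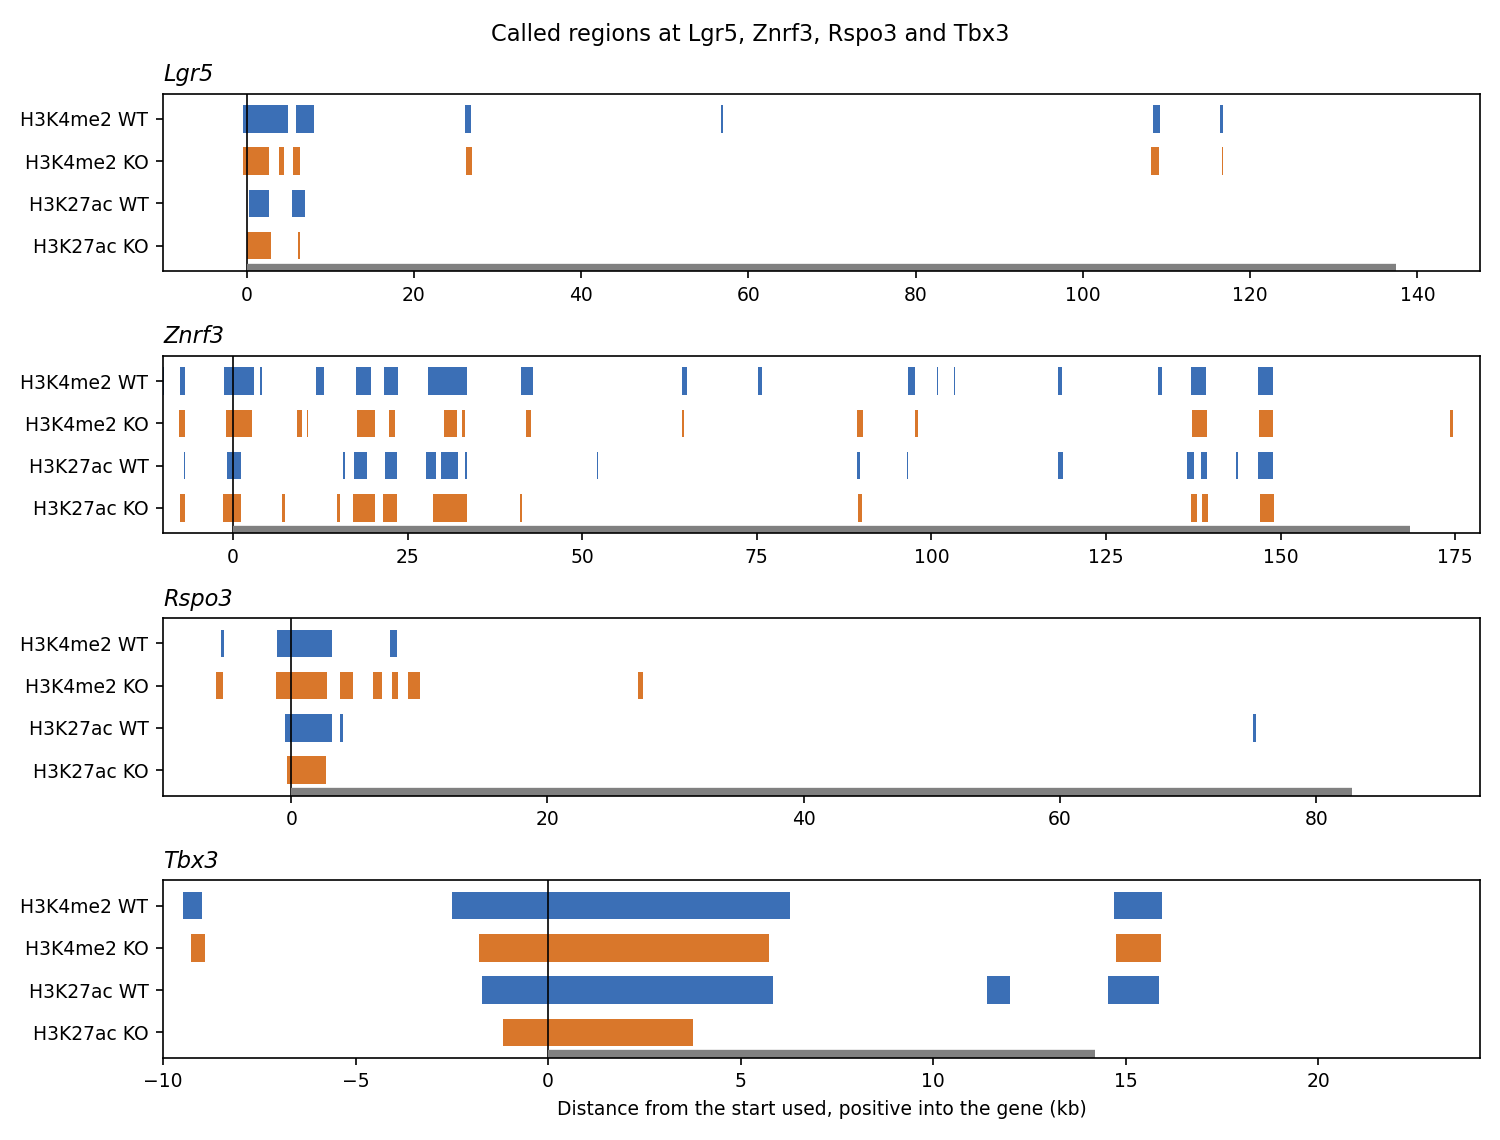
Called regions of each mark in WT (blue) and KO (orange) at Lgr5, Znrf3, Rspo3 and Tbx3, by distance in kb from the gene end with more H3K4me2, positive into the gene; the grey bar is the gene. Regions at that gene end, which was chosen by its H3K4me2, are present in every track. Regions within Znrf3 and Rspo3 and at the far end of Tbx3 differ between genotypes.

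Of the ubiquitin ligase genes, Znrf3 had less H3K4me2 in KO at about the same ratio as Lgr5, and Rnf43 was nearly the same in both genotypes. Znrf3 (chr11:5276329-5444847) was covered by H3K4me2 over 26007 bp in WT and 18054 bp in KO, a ratio of 1.44, just short of the call, at percentile 6.35. It passed over the gene without flanks (23828 against 15820 bp) and with lengths divided by the list totals (log2 difference -0.63). Among regions with a −log10 q-value of 5 or more the direction turned, with 8592 bp in WT and 10166 bp in KO, and with a limit of 10 the lengths were 4358 and 3695 bp. H3K27ac went the other way, with 16145 bp in WT and 18940 bp in KO. The length that carried both marks was nearly the same, 12972 bp in WT and 12526 bp in KO. As a share of the H3K4me2 length, which was shorter in KO, it was 49.9% in WT and 69.4% in KO. The largest single H3K4me2 difference was a WT region of 5574 bp about 30 kb into the gene, which corresponded to KO regions of 1899 bp and 448 bp, while H3K27ac there was a single region of 4893 bp in KO and 3 regions of 2416, 1479 and 327 bp in WT. The WT regions of H3K4me2 that overlapped no KO region had an authors' fold of at most 3.95.

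Rnf43 (chr11:87663087-87735539) was covered by H3K4me2 over 33714 bp in WT and 34376 bp in KO and by H3K27ac over 35864 bp and 37828 bp. These are the greatest lengths of the 8 genes, and ratios of 1.02 and 1.05 were among the smallest differences. Only 17.1% and 16.8% of the H3K4me2 lay within 5 kb of the first start. A further RefSeq start lies inside the gene at position 87699897, within the long non-coding RNA gene 1110028F11Rik, and H3K27ac covered every base within 1000 bp of it in both genotypes. Around it KO had a single H3K27ac region of 14924 bp, where WT had regions of 9847, 148 and 2552 bp. The upper end of Rnf43 faces the gene Supt4a, and regions there cannot be assigned to one of them.

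Rnf43 was the only one of the 8 with an E2f4 summit in its window. It had 1 summit in WT replicate 1, 1 in WT replicate 2 and 0 in both KO replicates. Among all genes, 12.5% had a summit within 10 kb in at least 1 of the 4 libraries, 5.93% in each WT library, and 1.78% in each WT library but neither KO library. The KO lists were also the shorter ones, with 287 and 683 peaks against 1791 and 1058 in WT, and the part of this in the count at Rnf43 was not tested. An exact two-sided permutation test over the 6 ways to assign the libraries gave p = 0.333, and no smaller value is possible. The summits were different sites, 35071 bp apart. The one in WT replicate 1 (peak chr11:87702219-87702362) lay 2361 bp from the internal Rnf43 start and ranked 1676 of 1791 peaks by −log10 q-value. The one in WT replicate 2 (chr11:87737212-87737386) lay 222 bp from the end of Supt4a and 1790 bp beyond Rnf43, at rank 816 of 1058. At each position both marks were present in WT and in KO. No site near Rnf43 was therefore called in more than 1 library, and no gene of the 8 had a summit in each WT library within 1 kb of its ends or among peaks with a −log10 q-value of 5 or more. For the other 7 genes the nearest summit of any library lay 61.2 kb away or more, the closest being that of WT replicate 2 beside Axin2.

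Axin2, the feedback scaffold of the beta-catenin destruction complex and a general reporter of Wnt activity, differed little. It lies at chr11:108917828-108950783. H3K4me2 covered 8905 bp in WT and 7962 bp in KO (ratio 1.12, WT over KO), and H3K27ac 7554 bp and 5876 bp (ratio 1.29), with 81.2% and 55.2% of the union of both genotypes shared. The region at the start was 5762 bp in WT and 5595 bp in KO for H3K4me2. For H3K27ac it was 4135 bp in WT, against regions of 2855 bp and 1037 bp in KO. Another element about 16 kb into the gene carried 2647 bp of H3K27ac in WT and 1361 bp in KO, the greatest part of the difference.

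Ctnnb1, which encodes beta-catenin itself, had nearly the same H3K4me2 length in both genotypes, 14680 bp in WT and 14622 bp in KO (chr9:120933400-120960507). H3K27ac covered 4714 bp in WT and 6335 bp in KO, a ratio of 1.34 (KO over WT), which passed 1.5 over the gene without flanks (2844 against 4443 bp). Among regions with a −log10 q-value of 5 or more no such difference was seen (3955 against 3951 bp), and within 25 kb the lengths were 6647 and 7298 bp. The marks had different extents at this gene. H3K4me2 reached from the start over 15 kb of the gene, while H3K27ac inside the gene lay at the start, with regions of 3756 bp in WT and 3951 bp in KO, and in a further KO region of 920 bp. As little as 24.0% of the H3K4me2 length carried H3K27ac in WT and 35.2% in KO, the lowest share of the 8 genes in each genotype, at percentiles 15.4 and 22.8 of all genes. The median over all genes was 64.4% in WT and 60.8% in KO, and over the 8 genes 61.8% and 59.3%.

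The target genes Tbx3 and Lect2 differed in opposite directions. Tbx3, a T-box repressor induced by beta-catenin (chr5:119670534-119684724), was covered by H3K27ac over 9494 bp in WT and 4956 bp in KO, a ratio of 1.92 (WT over KO), at percentile 9.10 of all differences. No KO base lay outside the WT regions. The region across the lower gene end was 7559 bp in WT and 4956 bp in KO. It also overlaps the long non-coding RNA gene Tbx3os1 and cannot be assigned to one of these genes. A region of 1323 bp beyond the upper end, which overlaps the long non-coding RNA gene Tbx3os2, was called in WT only. The same held for one of 612 bp inside Tbx3. H3K4me2 was called at both gene ends in KO as well: 8797 bp in WT and 7553 bp in KO at the lower end, and 1236 bp and 1166 bp at the upper end, in all 10519 and 9086 bp. H3K27ac thus covered 82.9% of the H3K4me2 length in WT and 54.5% in KO. The H3K27ac difference passed the ratio of 1.5 under all 8 other ways of measuring length, and KO was listed at 0 among regions with a −log10 q-value of 10 or more. It missed a ratio of 2.

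Lect2, a protein secreted by hepatocytes whose promoter is printed above (chr13:56529734-56548559), had longer regions of both marks in KO, without reaching the ratio of 1.5 in either. H3K4me2 covered 10084 bp in WT and 11868 bp in KO (ratio 1.18), and H3K27ac 8080 and 10842 bp (ratio 1.34). Nearly all of the WT length was kept, with 245 bp of H3K4me2 and 148 bp of H3K27ac found in WT only, against 2029 and 2910 bp in KO only. Over the gene without flanks H3K4me2 was 4245 bp in WT and 4143 bp in KO. For H3K4me2 the added length lay mostly upstream of the start, where a KO region of 7708 bp, reaching past the window, spanned WT regions of 1616 and 3072 bp. For H3K27ac it was spread out: a KO region of 919 bp inside the gene was not called in WT, the region near the end of Fbxl21 measured 327 bp in WT and 1087 bp in KO, and upstream a KO region of 6975 bp spanned WT regions of 1797 and 3791 bp. Among regions with a −log10 q-value of 10 or more, H3K4me2 covered 1514 bp in WT and 8867 bp in KO, and H3K27ac was listed at 0 in WT against 5106 bp in KO. The WT region of H3K4me2 at the start, 6913 bp long, lay just under this limit at 9.58. The lower part of Lect2 overlaps the gene Fbxl21.

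By the rule for similar patterns, the genes nearest to the 3 called genes in their covered percentages in the 4 histone libraries were named. For Lgr5 they were Olfm1, Acss3 and Neurl1a (Euclidean distances of 0.258, 0.315 and 0.591 percentage points). For Rspo3 they were Rab7b, Fam161a and Zfp120 (0.363, 0.561 and 0.824), and for Tbx3 they were Rnf39, Ccdc58 and Gm39270 (3.26, 3.61 and 3.65). Tbx3 had no gene as close as the other 2 did.

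Around the 8 genes, the rest of the pathway was covered by lists of 114 further genes. Of 113 tested for H3K4me2, 11 were longer in KO and 12 shorter (9.73% and 10.6%), and of 94 tested for H3K27ac, 16 were longer and 18 shorter (17.0% and 19.1%), with median log2 differences of 0.05 and 0.00. The shares over all genes, against which each list count that follows is to be read, were 11.5% longer and 5.71% shorter for H3K4me2 and 12.3% and 17.1% for H3K27ac. Of 12 Wnt ligand genes, 1 was longer and 2 were shorter for H3K4me2, and of 7 tested for H3K27ac 1 was longer and 4 were shorter (median -0.73). Among those shorter in H3K27ac were Wnt2 (13148 bp in WT and 7861 bp in KO) and Wnt9b (12372 and 2995 bp), the ligands of central vein endothelium, whose H3K4me2 was 3838 and 4220 bp and 5311 and 5771 bp. Both are also in the endothelial list above. Wnt4 had 353 bp of H3K4me2 in WT and 5193 bp in KO, and 2762 and 311 bp of H3K27ac.

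Of 14 receptor genes, 2 were longer for H3K4me2 (Ryk and Fzd3), and 3 of 10 were shorter for H3K27ac. Ryk, a co-receptor, had 5430 and 13670 bp of H3K4me2 and 11288 and 5984 bp of H3K27ac. Of the other 5 genes of the R-spondin axis, 3 were longer for H3K4me2. They were Rspo2, listed at 0 in WT against 2406 bp in KO, Rspo1 (376 and 1093 bp) and Rspo4 (154 and 954 bp). All 3 were under the minimum of 500 bp in WT, so these calls rest on short lengths. For H3K27ac only 1 of the 5 was tested, Lgr4, the receptor found widely in hepatocytes. It was longer in KO (31098 and 46773 bp), barely past the ratio. In the destruction complex, 2 of 13 were longer for H3K4me2, namely Amer1 and Fbxw11, 1 for H3K27ac (Tnks2), and none was shorter in either mark. Of the 11 transcription partners, none was longer and 2 were shorter for H3K4me2: Lef1 (11468 and 4817 bp) and Tcf7 (11360 and 6354 bp), factors also prominent in T cells. For H3K27ac 3 of these partner genes were longer and 1 was shorter, Lef1 being listed at 0 in WT against 1103 bp in KO, and Bcl9 having 10203 bp in WT and 6150 bp in KO. For H3K4me2, 8 of 11 lymphocyte markers tested were shorter past the ratio, against 5.71% of all genes, with a summed length of 86174 bp in WT and 43125 bp in KO, and 2 of all 13 were at 0 in WT and 3 in KO. For H3K27ac, 3 of 10 lymphocyte markers tested were longer past the ratio and 3 shorter, with summed lengths of 43252 bp in WT and 47015 bp in KO. The part of lymphocytes in the Lef1 and Tcf7 values was not tested.

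Of the 11 secreted inhibitors, 1 of 10 tested was longer and 3 were shorter for H3K4me2, and 1 of 5 was longer and 3 were shorter for H3K27ac. Dkk4 was listed at 0 for H3K27ac in KO against 2388 bp in WT, and Wif1 was the longer one (2862 and 4619 bp). Of the 10 other target genes, none was longer and 1 was shorter for H3K4me2. For H3K27ac, 2 of 9 were longer and 2 shorter. Cd44 (2572 bp in WT and 5971 bp in KO) and Sp5 (244 and 833 bp) were longer. Notum, a Wnt-inactivating enzyme also counted among the inhibitors, was shorter (4302 and 2611 bp), and Sox9 had 1864 bp in WT against none called in KO.

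Pericentral genes, the hepatocyte targets of the pathway, were split in both marks. Of 20, 1 was longer and 4 were shorter for H3K4me2, and 3 were longer and 5 shorter for H3K27ac, where all genes gave 5.71% shorter for H3K4me2 and 17.1% for H3K27ac. Cyp2e1, a pericentral cytochrome P450, had 16615 bp of H3K4me2 in WT and 8383 bp in KO. Its H3K27ac was 19352 and 13098 bp, short of the ratio. Oat, ornithine aminotransferase, had 10910 and 2461 bp of H3K27ac. Slc1a2, a glutamate transporter, Rhbg and Lhpp were shorter past the ratio in both marks. Their H3K4me2 was 4478 and 2233 bp, 2874 and 1344 bp, and 18283 and 11174 bp. Their H3K27ac was 8913 and 2387 bp, 976 and 240 bp, and 32697 and 16175 bp. In the other direction, Gstm3 was longer in both marks, with 4868 and 9355 bp of H3K4me2 and 4096 and 10780 bp of H3K27ac. Cyp2c29 had 734 and 2954 bp of H3K27ac. Cyp2a5 had 208 bp of H3K27ac in WT and 6807 bp in KO, with 7295 and 7088 bp of H3K4me2. It has close paralogs, so that its reads may not be uniquely placed. Of 20 periportal genes, 1 was longer and 1 shorter for H3K4me2, and 4 were longer and 1 shorter for H3K27ac. Cdh1, E-cadherin, was the shorter one in both marks (13268 and 5381 bp, and 19551 and 3788 bp). The median log2 difference for H3K27ac was -0.01 for pericentral and 0.25 for periportal genes, against -0.03 over all genes, and the difference between these lists was not tested.

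**Figure D4:**
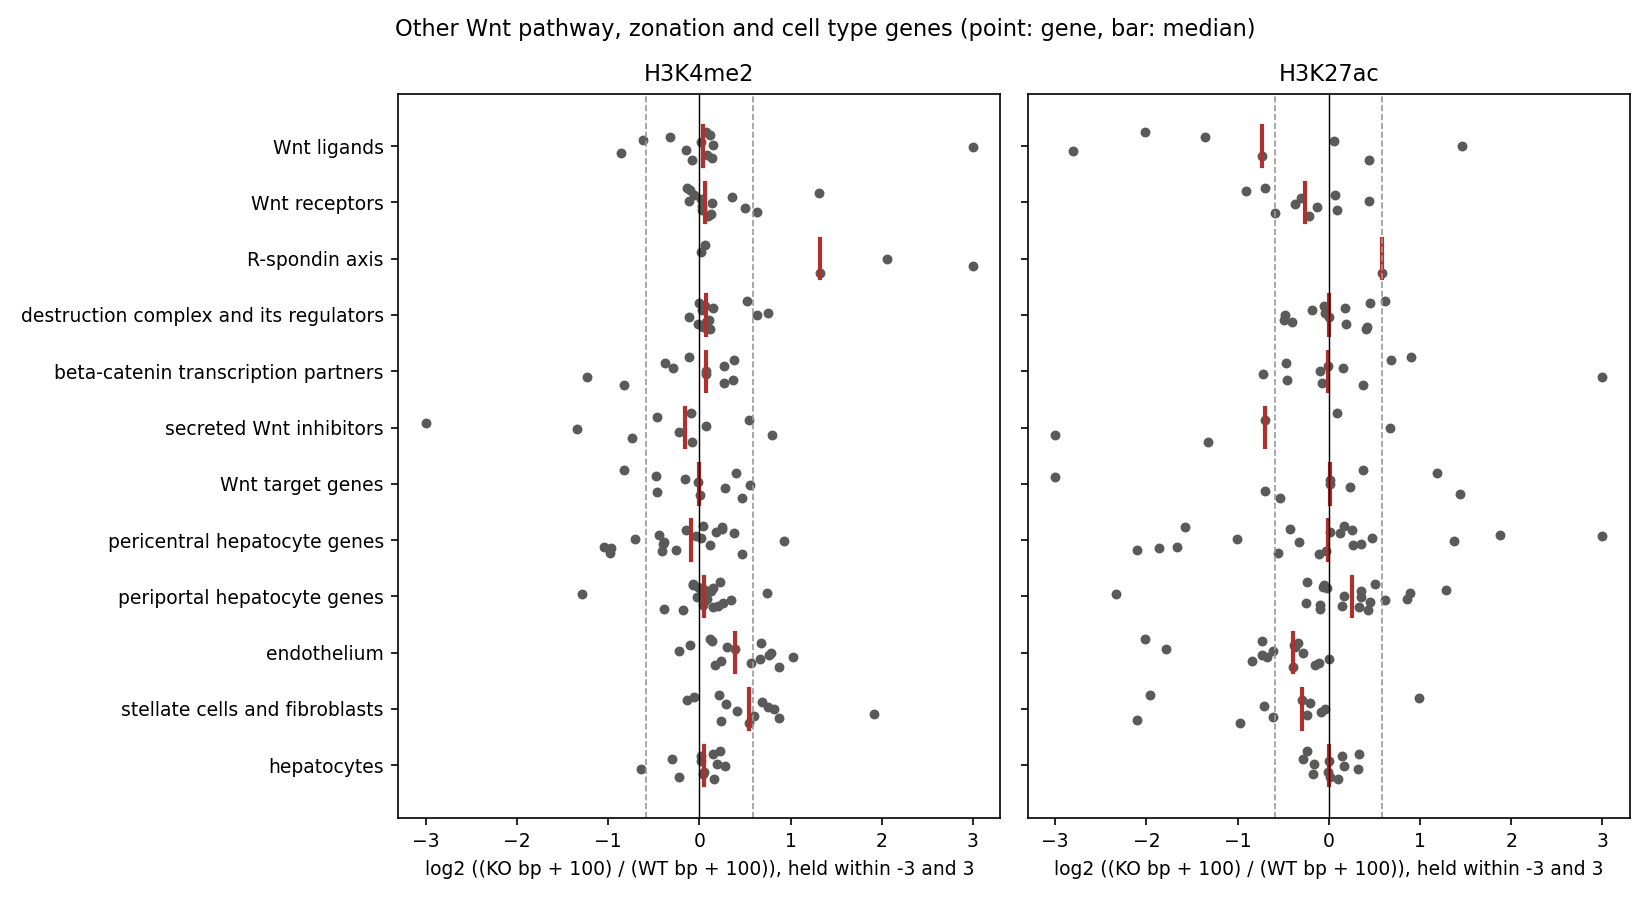
Log2 difference in covered length, KO over WT with 100 bp added, of each gene of the pathway, zonation and cell type lists without the 8 genes (grey points) with the median of each list (red bar), for H3K4me2 (left) and H3K27ac (right); dashed lines mark a ratio of 1.5. Most endothelial and stellate cell genes lie to the right for H3K4me2 and to the left for H3K27ac, and hepatocyte genes lie near 0 in both.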

How the data were processed

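E2f4, H3K4me2 and H3K27ac were measured by ChIP-seq in liver tissue frozen after collection and fixed in 1% formaldehyde for 20 min, per the labels' protocols. The submitters' processing notes list the build mm10 and, without saying what each did, the tools HOMER, MACS2 2.0.10.20131216, Picard and Bowtie2 2.2.3. The authors deposited 1 peak list per library, so peaks were not called on pooled replicates, and the sources used here do not give the use of the 8 inputs, which were left out. The deposited lists hold each peak's fold enrichment over background, a ratio, with its −log10 p-value, −log10 q-value, a score equal to 10 times the −log10 q-value (not used) and, for E2f4, the summit. The authors' fold belongs to a peak and its list and was used only as a description.

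The covered length is the union of a list's regions within the window. Genes came from RefSeq (GRCm38.p6, the coordinates of mm10), whose table gives outer gene ends only, so exon or intron is not analysed here. Where RefSeq gave no start, both gene ends were examined and the end with more H3K4me2 is reported. Calls used a ratio of at least 1.5 and 500 bp. The log2 scale adds 100 bp. Overlap means at least 1 bp. Python 3.11.15 with numpy 2.4.6 and pandas 2.3.3 was used, and the functions were tested on simulated data. The genes and all lists were chosen with earlier results of these data known. Named genes were the 8, up to 2 further genes per list, mark and direction with the largest ratio, and the 3 nearest genes of each called gene. Other list genes given with values (Wnt2, Rspo1 and Lhpp) were picked with their values in view. Alternatives covered other windows, thresholds, scalings and the leaving out of E2f4 libraries.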

Additional observations from a re-analysis of the deposited data

How the results depend on the processing

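Of the 8 genes, 2 passed the ratio for H3K4me2 and 1 for H3K27ac. With regions under a −log10 q-value of 5 left out the number for H3K4me2 was 1 (Rspo3, listed at 0 in WT; 18.3% of all genes), and under 10 it was 4 (Ctnnb1, Lgr5, Rnf43 and Lect2; 20.2%). It was 1 with lists of equal length (Lgr5; 16.5%) and 0 at a ratio of 2 (7.09%). For H3K27ac it was 3 over the gene alone (Ctnnb1, Tbx3 and Lect2, against 35.1% of all genes), 2 with the limit of 5 (Znrf3 and Tbx3, 34.4%), 3 with that of 10 (Rnf43, Tbx3 and Lect2, 44.9%), 2 with regions under 1000 bp apart joined (Tbx3 and Rspo3, 30.4%), 6 at a ratio of 5 to 4 (50.9%) and 0 at a ratio of 2 (14.5%). With the limit of 10 the Ctnnb1 difference for H3K4me2 turned, from a log2 value of -0.01 to 0.65 (5840 bp in WT, 9216 bp in KO). Just under this limit lay WT regions of Rnf43 (H3K4me2 at 9.97, H3K27ac at 9.95) and of Lect2 (H3K4me2 at 9.58). With the limit of 5, Znrf3 turned for H3K4me2 from -0.52 to 0.24 and Lgr5 for H3K27ac from -0.38 to 0.21. The number of genes with a summit in each WT library, 1 as reported, was 0 within 1 kb of the gene ends and 0 with the limit of 5. It was 1 without either WT replicate, and no gene had a KO summit without either KO replicate (0 in each case). No paired analysis was possible because the histone marks had 1 library per genotype and E2f4 was tested at 1 gene only, by exact permutation of 4 libraries, with no model to hold a block. Over the single genes, 132 of 155 alternative values kept their side of the ratio, and 119 kept both side and direction. At the ratios of 5 to 4 and of 2 the lengths were those reported, so that the direction could not turn there. No uncalled value could become called at a ratio of 2, and no called value could be lost at 5 to 4. Such kept sides were fixed in advance and are among the 132. Some other settings also left the lengths of a gene unchanged, as for Lgr5, Rspo3 and Tbx3 within 25 kb. Genes at 0 in both genotypes under a setting were not counted. The direction turned in 14, the 11 not given above being of Ctnnb1, Axin2, Rnf43 and Lect2. The cause of these changes was not tested. Depth is unknown and limits every list.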
